A study of Mus musculus with 6 samples.

Results

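Small structural RNAs are the non-coding RNAs that act as guides, scaffolds or catalysts inside ribonucleoprotein particles. In the deposited gene counts they were taken as the rows whose symbol starts with Snora, Snord, Scarna or Rnu, together with Rn7sk, Rn7s1, Rn7s2, Rmrp, Rpph1, Terc, Rny1 and Rny3. This gave 45 of 26469 rows, under 40 symbols, of which 12 were box H/ACA small nucleolar RNAs (snoRNAs), 13 box C/D snoRNAs, 6 small Cajal body RNAs (scaRNAs), 4 spliceosomal small nuclear RNAs (snRNAs) and 10 other structural RNAs. RNA was sequenced from 6 cultures of mouse splenic CD4+ T cells, 3 mutant and 3 control. The mutant cells carried Sf3b1K700E/fl with Cd4Cre, and the control cells Sf3b1K700E/fl without the recombinase, annotated as WT, so both groups held the conditional allele. SF3B1 is a core protein of the U2 particle of the spliceosome, and K700E is a change found in human cancers. Cd4-Cre acts in developing T cells and therefore also in the precursors of CD8 T cells. All 6 cultures started from sorted naive CD4+ cells and were held for 36 h with TGF-β at 5 ng/ml, antibodies to CD3 and CD28, and antibodies that block IL-4 and IFNγ, a mixture that drives cells towards regulatory T cells. Ribosomal RNA was removed before the libraries were made, so RNAs without a poly(A) tail could be counted.

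As background, box C/D snoRNAs guide 2'-O-methylation and box H/ACA snoRNAs guide pseudouridylation, mostly of ribosomal RNA, and a few of them act instead in the cleavage of its precursor. The scaRNAs do the same for spliceosomal snRNAs in Cajal bodies. In mammals most snoRNAs are cut out of the introns of host genes, whereas 7SK, the 7SL RNA of the signal recognition particle and the RNAs of RNase P and RNase MRP are made by RNA polymerase III. In activated T cells, which start to grow and divide, these RNAs serve ribosome production, secretion and the control of paused RNA polymerase II.

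The deposited counts added up to between 34524433 and 36867313 per mutant library and between 33633196 and 43928723 per control library. Sf3b1 itself was at 649, 593 and 639 CPM (counts relative to the scaled library total) in mutant 1, 2 and 3, and at 632, 712 and 638 CPM in control 1, 2 and 3. Gene-level counts hold no information on the allele. The 7 T cell markers, Cd3e and Cd4 among them, summed to 1802 to 2627 CPM in mutant and 1525 to 2157 CPM in control libraries. The 4 B cell markers Cd79a, Cd79b, Ms4a1 and Pax5 summed to 3.56, 28.2 and 6.30 CPM in mutant 1, 2 and 3. In control 1, 2 and 3 they summed to 4.44, 1.92 and 2.26 CPM. In edgeR 3 of the 4 were estimated higher in mutant cells at an unadjusted p under 0.05, against 4.14% of all genes tested. Of these, Cd79a was above all controls in all mutant libraries, while Ms4a1 and Pax5 overlapped. Those 2 were highest in mutant 2, at 7.68 and 11.5 CPM. In mutant 1 they were at 0 and 0.0848 CPM, below control 1 at 0.319 and 0.784 CPM. The labels do not say whether libraries came from separate animals, and a p-value here reflects the spread among these 6 samples alone, which may be technical.

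The structural RNAs took 1.68, 2.48 and 1.56% of all counts in mutant 1, 2 and 3, against 2.72, 2.48 and 2.39% in control 1, 2 and 3. Nearly all of this came from 3 rows, and without Rn7sk, Rn7s1 and Rn7s2 the other 42 rows took 0.156, 0.35 and 0.186% in mutant and 0.361, 0.337 and 0.333% in control libraries. In both sums mutant 1 and mutant 3 lay below every control library, while mutant 2 lay within the control range. This split of the mutant libraries recurred in the rows of Rn7s1, Rn7s2 and Rmrp. In Rpph1, Snora73a, Snora73b, Scarna10 and Scarna6, mutant 1 and mutant 3 were also below every control library. Mutant 2 was closest below the controls in the first 3 of these and above them in Scarna10 and Scarna6. Rn7sk, Scarna2 and Scarna13 did not show the split. Fewer cells that make an RNA and less of that RNA per cell cannot be told apart in such bulk samples.

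Of the 45 rows, 27 passed the filter on low counts and were tested, and the 18 others had at most 18.7 counts in any library. None of the 27 passed edgeR's quasi-likelihood test with Benjamini-Hochberg adjustment over all genes (adjusted p from 0.598 to 0.993), and neither did any other gene, 0% of 18323. At an unadjusted p under 0.05, 5 of the 27 (18.5%) were lower in mutant cells, against 3.48% of all genes tested, and 0 were higher, against 4.14%. These 5 were Snora74a, Snora73a, Snora73b, Rn7s1 and Rn7s2. They stand for fewer independent RNAs, since 2 pairs among them are near-identical copies. The count was 3 of 18 when the rows of copies were summed before the fit, an alternative chosen after the data were seen, and from 1 to 10 when single libraries were left out. In 5 of the 27 (18.5%) all mutant libraries were below all control libraries, against 7.48% of all genes tested, and in 0 all were above, against 6.60%. These 5 were Snora74a, Snora73a, Snora73b, Rpph1 and 1 Terc row. Without mutant 2 the number below was 13, and when libraries were scaled by total counts it was 2. No share over all genes was taken for fits with copies summed, a library left out or another scaling. Their counts therefore have no background here, and groups of fewer libraries also separate more readily. The median log2 fold change of the 27 was -0.55, beside 0.024 over all genes tested, and it ran from -0.94 without mutant 2 to -0.29 without mutant 1. Of the 27, 21 (77.8%) had a log2 fold change below 0, beside 47.1% of all genes. DESeq2 gave an adjusted p under 0.05 to 1 member, Snora74a, and to 0.379% of the 26415 rows it fitted. It gave no adjusted p to 10788 of these rows, members at low counts among them. At an unadjusted p under 0.05 it found 7 of the 45 members lower, against 2.58% of all rows, and 0 higher, against 3.54%. With limma-voom 7 of the 27 were lower, against 3.79% of all genes, and 0 were higher, against 3.30%. The 2 further members in both tools were Rpph1 and Rmrp ENSMUSG00000088088.

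**Figure D1:**
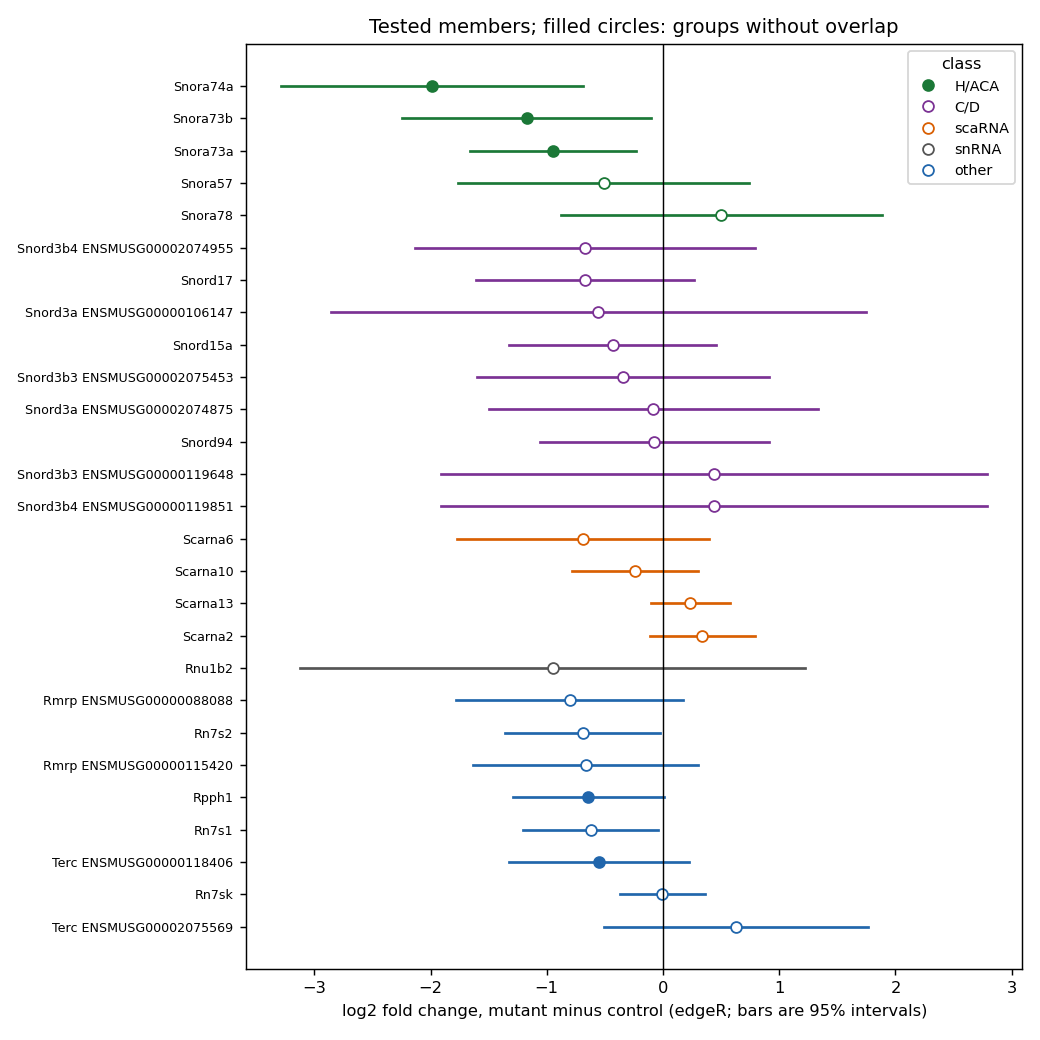
Log2 fold change, mutant minus control, of the 27 tested rows, grouped by class, with 95% intervals from edgeR's quasi-likelihood test. Filled circles mark the 5 rows whose mutant libraries all lay below every control library, and Snora74a stands farthest from 0 at -1.99.

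Among the RNAs transcribed by RNA polymerase III, the 7SL copies were lower in 2 mutant libraries and 7SK was not. Rn7s1 and Rn7s2 encode 7SL, the scaffold of the signal recognition particle that brings ribosomes with nascent secretory proteins to the endoplasmic reticulum. In GENCODE release M21 (mouse build GRCm38, chromosome 12, matched by symbol) both copies have the same 300 bases, with 0 differences, so how their reads were split between the rows cannot be checked and they are best read as a sum.
The 2 rows together were at 7137, 14246 and 7960 CPM in mutant 1, 2 and 3, against 15684, 16757 and 13759 CPM in control 1, 2 and 3. Mutant 1 and mutant 3 were far below the controls, and mutant 2 lay between control 3 and control 1. The means were 9781 ± 3889 CPM in mutant and 15400 ± 1519 CPM in control cells (SD, n = 3 each). For the sum edgeR estimated a log2 fold change of -0.65 ± 0.27 (SE; 95% interval -1.28 to -0.034; adjusted p 0.647). Row by row, Rn7s1 had a log2 fold change of -0.62 (-0.94 without mutant 2, -0.46 without mutant 1) and Rn7s2 of -0.69 (-1.08 without mutant 2, -0.46 without mutant 1).

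Rn7sk is 7SK, the scaffold that holds the elongation kinase P-TEFb inactive together with HEXIM and LARP7 proteins. The first 120 of its 331 bases (chromosome 9, matched by symbol) are shown with every GATC in capitals, since GAUC repeats in the first hairpin are where HEXIM1 is known to bind. The whole RNA holds 3 copies, all within this stretch, and 9.06% of the 4745 GENCODE M21 transcripts within 30 bases of its length hold as many or more.
Rn7sk: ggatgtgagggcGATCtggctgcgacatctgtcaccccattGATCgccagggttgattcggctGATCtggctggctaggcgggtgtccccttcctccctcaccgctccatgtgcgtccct
Rn7sk was at 7762, 6691 and 5836 CPM in mutant 1, 2 and 3, against 7355, 6391 and 6633 CPM in control 1, 2 and 3. The groups overlapped, with the highest and the lowest level both in mutant libraries. The estimated log2 fold change was near 0, at -0.0063 ± 0.16 (SE; 95% interval -0.37 to 0.36), and its sign turned under other scalings. Per kilobase of transcript the mean levels of Rn7sk, Rn7s1 and Rn7s2 over the 6 libraries were close, at 20477, 21250 and 20718 CPM per kilobase.

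Rpph1, the catalytic RNA of RNase P, which trims the 5' end of transfer RNA precursors, was at 920, 2067 and 1183 CPM in mutant 1, 2 and 3, against 2249, 2189 and 2071 CPM in control 1, 2 and 3. All mutant libraries were below all controls, although mutant 2 and control 3 were almost level. The groups overlapped under scaling by upper quartile, by total counts or by TMM without the members. They also overlapped with the filters of 1 CPM in 3 samples or of a mean of 1 CPM, and without mutant 1. EdgeR put the log2 fold change at -0.64 ± 0.28 (SE; 95% interval -1.29 to 0.0088; adjusted p 0.659). Without mutant 2 it was -1.02, and without mutant 1 it was -0.40. The mean level of Rpph1 was 5579 CPM per kilobase.

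Rmrp, the RNA of RNase MRP, which cleaves the ribosomal RNA precursor, had 2 rows that describe overlapping transcripts on chromosome 4. The model of ENSMUSG00000115420 has 281 bases, and all 271 bases of the model of ENSMUSG00000088088, in capitals here, lie within it from base 6 on.
Rmrp ENSMUSG00000115420: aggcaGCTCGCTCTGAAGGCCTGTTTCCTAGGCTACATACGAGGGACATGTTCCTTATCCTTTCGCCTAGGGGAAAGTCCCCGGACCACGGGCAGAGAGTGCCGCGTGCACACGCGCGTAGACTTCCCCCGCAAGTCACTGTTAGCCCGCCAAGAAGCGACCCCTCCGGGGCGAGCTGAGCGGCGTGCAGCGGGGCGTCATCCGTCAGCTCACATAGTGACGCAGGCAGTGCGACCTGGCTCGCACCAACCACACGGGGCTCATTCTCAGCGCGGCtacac
Almost any Rmrp read therefore belongs to both rows, and their sum was used. It was 255, 923 and 405 CPM in mutant 1, 2 and 3, against 808, 1015 and 825 CPM in control 1, 2 and 3. Mutant 1 and mutant 3 were below every control library and mutant 2 was within the control range. Summed, Rmrp had a log2 fold change of -0.74 ± 0.42 (SE; 95% interval -1.71 to 0.23; edgeR adjusted p 0.717). Without mutant 2 both rows were lower at an unadjusted p under 0.05 in edgeR, with log2 fold changes of -1.48 for ENSMUSG00000088088 and -1.29 for ENSMUSG00000115420, and without mutant 1 neither was, at -0.46 and -0.32.

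Ratios of counts within a library do not depend on how libraries are scaled. The 7SL rows had 0.92, 2.13 and 1.36 counts for each Rn7sk count in mutant 1, 2 and 3, against 2.13, 2.62 and 2.08 in control 1, 2 and 3. For Rpph1 the ratio to Rn7sk was 0.119, 0.309 and 0.203 in mutant and 0.306, 0.343 and 0.312 in control libraries. For the Rmrp rows it was 0.0328, 0.138 and 0.0693 in mutant and 0.11, 0.159 and 0.124 in control libraries. In all 3 ratios mutant 1 was lowest and mutant 3 next, and mutant 2 was within the control range. For Scarna2, by contrast, the ratio to Rn7sk was 0.0177, 0.0136 and 0.0164 in mutant and 0.0132, 0.0117 and 0.0127 in control libraries.

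**Figure D2:**
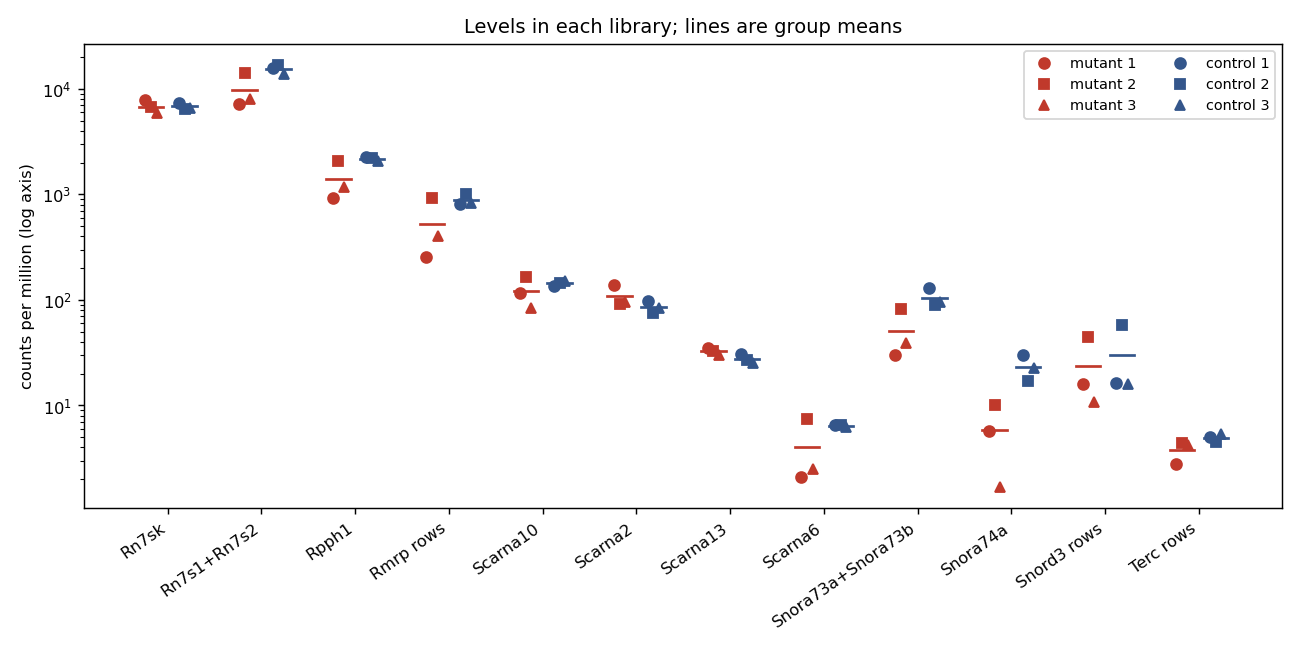
Level in CPM, on a log axis, of the abundant members in each of the 3 mutant (red) and 3 control (blue) libraries, with rows of copies summed and lines at the group means. Rn7sk is level across libraries, while Rn7s1+Rn7s2, Rpph1, Rmrp and Scarna6 are low in mutant 1 and mutant 3 and near control in mutant 2.

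Terc, the template RNA of telomerase and itself a box H/ACA RNA, was counted under 2 rows that shared reads. Together they held 99, 155 and 155 counts in mutant 1, 2 and 3, against 173, 183 and 193 in control 1, 2 and 3. In CPM the sum was 2.80, 4.39 and 4.21 in mutant and 5.02, 4.49 and 5.31 in control libraries, with no overlap and a log2 fold change of -0.38 ± 0.27 (SE). In the larger row, ENSMUSG00000118406, the groups overlapped under scaling by upper quartile or total counts. The rows themselves moved in opposite directions, at -0.55 for ENSMUSG00000118406 and 0.63 for ENSMUSG00002075569, and neither direction can be separated from how reads were shared. The Y RNAs Rny1 and Rny3, small partners of the Ro60 protein, had at most 4 counts in any library and were not tested.

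Of the box H/ACA snoRNAs 5 of 12 were tested, and they included Snora74a and Snora73b, the rows with the lowest log2 fold changes among the 27. The median over these 5 was -0.95, with 4 below 0 and 1 above. Over all 12 rows, most of them at a few counts, it was -0.13 in edgeR with no filter and -0.14 in DESeq2. Summed over the class the level was 36.2, 93.8 and 41.7 CPM in mutant 1, 2 and 3, against 162, 107 and 119 CPM in control 1, 2 and 3, and no library of one group reached the other. All 12 sequences end in the ACA box, ACA within the last 6 bases, as do 45.8% of the 1507 GENCODE M21 snoRNA transcripts.

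Snora73a and Snora73b are the U17 snoRNAs, which act in the cleavage of the ribosomal RNA precursor rather than as modification guides. Both lie on chromosome 4 and have 205 bases, which differ at 7 positions, in capitals here. Counted from the 5' end, the substitutions from Snora73a to Snora73b are G3A, G54A, A111G, T164C, G203A, T204A and T205A. The pair is shown because reads that cover none of these bases cannot tell one row from the other.
Snora73a: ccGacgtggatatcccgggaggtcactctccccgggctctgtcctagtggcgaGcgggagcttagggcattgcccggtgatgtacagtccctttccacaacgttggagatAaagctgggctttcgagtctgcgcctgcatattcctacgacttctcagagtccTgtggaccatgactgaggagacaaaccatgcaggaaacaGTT
Snora73b: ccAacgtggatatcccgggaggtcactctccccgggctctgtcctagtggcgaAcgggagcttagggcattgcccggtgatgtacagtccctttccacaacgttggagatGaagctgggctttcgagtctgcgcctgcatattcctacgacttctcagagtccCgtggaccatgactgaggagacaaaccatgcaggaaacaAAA
Snora73a was at 19.5, 38.5 and 19.2 CPM in mutant 1, 2 and 3, against 63.1, 40.2 and 45.6 CPM in control 1, 2 and 3. Snora73b was at 10.3, 43.9 and 19.7 CPM in mutant 1, 2 and 3, against 67.3, 49.2 and 50.2 CPM in control 1, 2 and 3. In both rows the 3 mutant libraries were under the 3 controls, mutant 2 by the least, although Snora73a overlapped under scaling by upper quartile or total counts. Summed, they averaged 50.4 ± 28.1 CPM in mutant and 105 ± 22.0 CPM in control cells (SD, n = 3 each). This was a log2 fold change of -1.06 ± 0.37 (SE; 95% interval -1.91 to -0.22; edgeR adjusted p 0.643). Leaving out single libraries moved Snora73a between -1.33 and -0.74 and Snora73b between -1.87 and -0.79.

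Snora74a, also called U19, had the largest difference of the 27 tested members. It was at 5.69, 10.2 and 1.68 CPM in mutant 1, 2 and 3, against 30.1, 16.9 and 22.5 CPM in control 1, 2 and 3. All mutant libraries were below all control libraries, and here mutant 3, not mutant 1, was lowest. Its log2 fold change was estimated at -1.99 ± 0.56 (95% interval -3.28 to -0.69). The edgeR adjusted p was 0.598 and its unadjusted p 0.00793, and in DESeq2 the adjusted p was 0.0228. Without single libraries the log2 fold change ran from -2.63 without mutant 2 to -1.55 without mutant 3, and the unadjusted edgeR p stayed at or below 0.0292. The other tested H/ACA rows, Snora57 and Snora78, averaged about 10 counts a library, with log2 fold changes of -0.51 ± 0.54 and 0.50 ± 0.60 (SE). The 7 untested rows, Snora21, Snora23, Snora30, Snora31, Snora34, Snora41 and Snora62, had mean counts of 0.333 to 6.17 per library.

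Host genes were set beside these snoRNAs, using the genes that hold them on the same strand in GENCODE M21. Snora74a lies within 2 GENCODE M21 genes, 1 typed as a processed transcript and 1 as protein-coding, whose IDs both carry the symbol Snhg4 in the deposited table. The larger row, the processed transcript ENSMUSG00000117869, was at 77.3, 148 and 239 CPM in mutant 1, 2 and 3, against 115, 128 and 130 CPM in control 1, 2 and 3, with a log2 fold change of 0.32 ± 0.35 (SE). The smaller Snhg4 row, ENSMUSG00000117694, was at 1.80, 1.66 and 1.90 CPM in mutant and 2.47, 2.28 and 3.27 CPM in control libraries. Per count of the larger Snhg4 row there were 0.0736, 0.069 and 0.00703 counts of Snora74a in mutant 1, 2 and 3, against 0.262, 0.133 and 0.174 in control 1, 2 and 3. The ratio thus did not overlap between the groups, and mutant 3 had both the highest Snhg4 and the lowest Snora74a level.

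Snora73a and Snora73b lie within Snhg3, a non-coding gene, and within the span of Rcc1, which encodes a chromatin-bound exchange factor. Snhg3 was at 12.1, 21.4 and 22.3 CPM in mutant 1, 2 and 3, against 10.4, 19.3 and 15.3 CPM in control 1, 2 and 3, a log2 fold change of 0.31 ± 0.30 (SE). Rcc1 had a log2 fold change of -0.31 ± 0.27 (SE). The Snora73 rows had 2.46, 3.85 and 1.75 counts for each Snhg3 count in mutant 1, 2 and 3, against 12.6, 4.64 and 6.26 in control 1, 2 and 3. Over Snhg3 the groups did not overlap, mutant 2 and control 2 being closest. Over Rcc1 they did. Rcc1 was at 60.8, 82.4 and 125 CPM in mutant 1, 2 and 3, against 99.8, 134 and 98.9 CPM in control 1, 2 and 3. Mutant 2 had 82.4 CPM of the Snora73 rows and control 2 had 89.4 CPM, so relative to Rcc1 mutant 2 was the higher. Reads of an unspliced host transcript can fall on the snoRNA, so these ratios compare rows of the table, not purified RNAs.

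**Figure D3:**
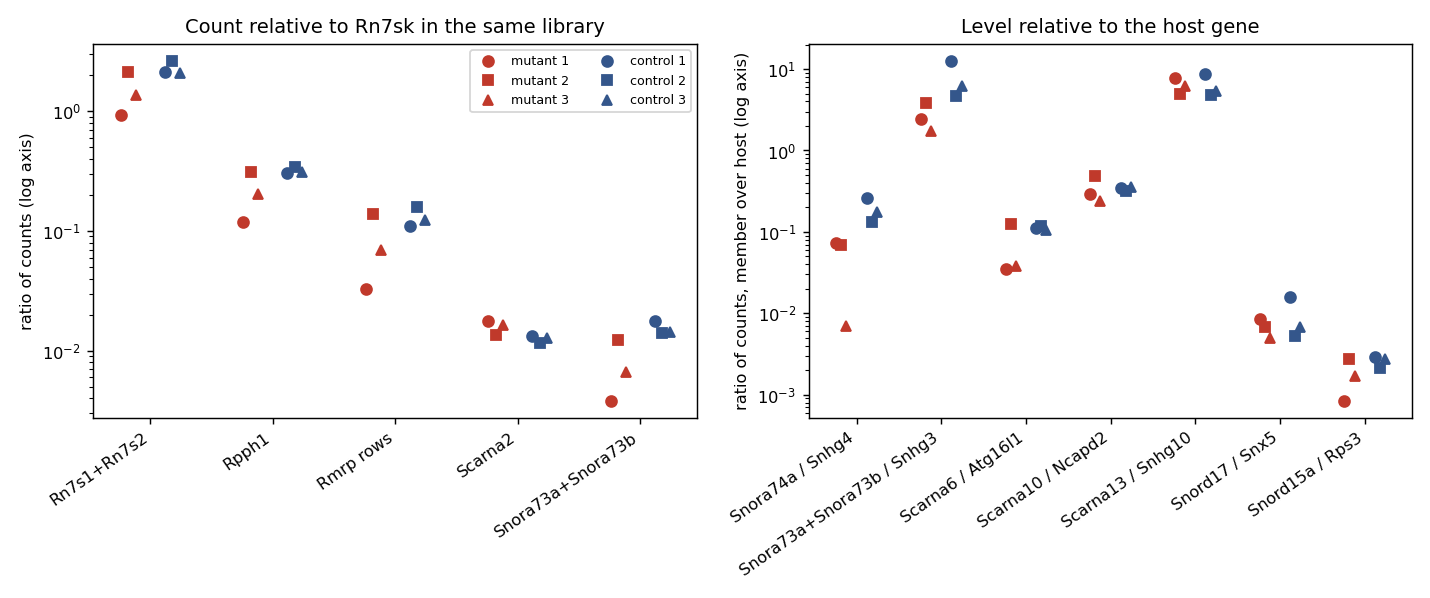
Ratios of counts within each library, on log axes, for the 3 mutant (red) and 3 control (blue) libraries, on the left for members over Rn7sk and on the right for members over their host gene. Snora74a over Snhg4 and Snora73a+Snora73b over Snhg3 are separated by group, while Scarna13 over Snhg10 is not.

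The scaRNAs differed among themselves, and 4 of 6 rows were tested. Their summed level was 290, 295 and 212 CPM in mutant 1, 2 and 3, against 269, 253 and 266 CPM in control 1, 2 and 3, and the class median log2 fold change was -0.0039, with its sign turned under upper quartile and total-count scaling. Scarna6, which has 265 bases and lies on chromosome 1, is shown with the core of the C box (TGATGA) and the D box letters (CTGA) in capitals, both of which occur together in 25.2% of GENCODE M21 snoRNA transcripts. It was the scaRNA with the lowest fold change.
Scarna6: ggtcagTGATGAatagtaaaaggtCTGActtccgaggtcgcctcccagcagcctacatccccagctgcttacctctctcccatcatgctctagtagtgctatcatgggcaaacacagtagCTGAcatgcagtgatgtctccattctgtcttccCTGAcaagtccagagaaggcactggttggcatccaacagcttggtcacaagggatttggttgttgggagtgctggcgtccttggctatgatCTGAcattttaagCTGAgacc
Scarna6 was at 2.12, 7.39 and 2.50 CPM in mutant 1, 2 and 3, against 6.53, 6.58 and 6.22 CPM in control 1, 2 and 3. Mutant 1 and mutant 3 were well below the tightly grouped controls, and mutant 2 was above them. With all libraries its log2 fold change was -0.69 ± 0.47 (SE), and it was -1.46 without mutant 2, -0.37 without mutant 1 and -0.44 without mutant 3. Its host Atg16l1, an autophagy gene, was at 60.0, 59.0 and 65.6 CPM in mutant and 59.2, 55.1 and 59.6 CPM in control libraries.

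Scarna10 was at 115, 164 and 83.8 CPM in mutant 1, 2 and 3, against 135, 145 and 150 CPM in control 1, 2 and 3. It lies within Ncapd2, a condensin subunit gene, which had a log2 fold change of -0.21 ± 0.14 (SE). That of Scarna10 was -0.24 ± 0.23 (SE), with -0.51 without mutant 2 and -0.037 without mutant 3. Scarna2, which is transcribed from its own gene, was at 137, 90.8 and 95.5 CPM in mutant 1, 2 and 3, against 97.0, 74.8 and 84.2 CPM in control 1, 2 and 3. Its estimated difference on the log2 scale was 0.34 ± 0.20 (SE; interval -0.11 to 0.79), and it was highest in mutant 1, the library with the lowest Rmrp, Rpph1 and 7SL levels. Without mutant 1 the difference was 0.14. Scarna13 was at 34.8, 32.7 and 29.9 CPM in mutant 1, 2 and 3, against 30.7, 27.0 and 25.1 CPM in control 1, 2 and 3, with a log2 fold change of 0.24 ± 0.15 (SE) beside 0.20 ± 0.28 (SE) for its host Snhg10. Neither Scarna2 nor Scarna13 was low in mutant 1 or mutant 3. The untested Scarna3a and Scarna17 had mean counts of 2.50 and 0.833 per library.

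Box C/D snoRNAs were scarce in these libraries, and 9 of 13 rows were tested. The class median log2 fold change was -0.34, with 7 below 0. It was 0.41 without control 2, -0.86 without mutant 2, -0.18 without mutant 1 and -0.042 without mutant 3, and -0.11 over all 13 rows with no filter. Of the 9, 6 are copies of U3 (Snord3), the snoRNA that pairs with the ribosomal RNA precursor and is needed for its early cleavages. The model of ENSMUSG00000106147 (213 bases, chromosome 10) is shown with TGATGA and TCTGA in capitals, the letters of the C and D boxes, found together in 9.82% of GENCODE M21 snoRNA transcripts.
Snord3a ENSMUSG00000106147: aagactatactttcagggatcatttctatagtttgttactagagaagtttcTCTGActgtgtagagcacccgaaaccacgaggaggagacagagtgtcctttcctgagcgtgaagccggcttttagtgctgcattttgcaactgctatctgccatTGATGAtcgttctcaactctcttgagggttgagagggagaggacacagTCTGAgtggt
The 6 Snord3 rows together were at 16.1, 44.6 and 10.7 CPM in mutant 1, 2 and 3, against 16.3, 57.4 and 15.9 CPM in control 1, 2 and 3. One library in each group, mutant 2 and control 2, stood well above the others, so the group means of 23.8 ± 18.2 CPM in mutant and 29.9 ± 23.8 CPM in control cells (SD, n = 3 each) differed by far less than their spread. Over the sum the log2 fold change was -0.33 ± 0.65 (SE; 95% interval -1.83 to 1.17).

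Of the other C/D rows, Snord17 was at 2.35, 2.38 and 2.39 CPM in mutant 1, 2 and 3, against 6.24, 2.36 and 2.75 CPM in control 1, 2 and 3, so its log2 fold change of -0.67 ± 0.41 (SE) rested on control 1 and was -0.11 without it. Its host Snx5, a sorting nexin gene, had a log2 fold change of -0.17 ± 0.21 (SE). Snord15a, hosted by the ribosomal protein gene Rps3, was at 0.933, 2.32 and 1.60 CPM in mutant and 2.47, 1.89 and 2.20 CPM in control libraries. Snord94, within Ptcd3, averaged 19.5 counts a library and had a log2 fold change of -0.075 ± 0.43 (SE), while Ptcd3, a mitochondrial translation gene, was at 76.2, 86.4 and 109 CPM in mutant and 118, 127 and 127 CPM in control libraries. The untested Snord13, Snord43, Snord89 and Snord118 had at most 3 counts in any library.

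The spliceosomal snRNAs, partners of the protein that is mutated here, had few counts under symbols that start with Rnu. Copies under other symbols were not searched for. Only 1 of 4 rows, the U1 copy Rnu1b2, passed the filter, and Rnu12, the U12 RNA of the minor spliceosome, had between 3 and 9 counts in every library. U2, the RNA of the U2 particle, of which SF3B1 is a core protein, had no row under a symbol that starts with Rnu and was not analysed here. Rnu1b2 (165 bases, chromosome 3, matched by symbol) is shown with ACTTACCTG near its start in capitals, the bases that pair with the 5' splice site and that 3.98% of the 1383 GENCODE M21 snRNA transcripts hold within their first 12 bases.
Rnu1b2: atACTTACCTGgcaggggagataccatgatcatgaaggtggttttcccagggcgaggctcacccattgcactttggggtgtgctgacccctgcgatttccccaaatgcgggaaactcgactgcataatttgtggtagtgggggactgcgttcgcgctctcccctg
The 3 Rnu1b rows together had 3.25, 22.3 and 28.4 counts in mutant 1, 2 and 3, against 44.1, 41.1 and 24.6 counts in control 1, 2 and 3. The groups overlapped, and the sum differed by -1.01 ± 0.66 on the log2 scale (SE; 95% interval -2.53 to 0.51), an interval that holds both 0 and the value measured for 7SL.

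Among rows with a known length, the longer rows had the higher counts. Lengths from GENCODE M21 were available for 38 of 45 rows (84.4%), 29 matched by gene ID and 9 by symbol. The 15 rows of 196 to 414 bases had mean counts of 111 to 246688 per library, and all 15 were tested. The 23 rows of 79 to 184 bases had mean counts of 0.167 to 69.3 per library, with a median of 1.38, and 5 of them were tested. The count ranges of the longer and shorter rows did not overlap, although the dividing length of 190 bases was chosen after the values were seen. The rows left out for lack of a length were Snord3 and Terc rows. Among them Snord3b3 ENSMUSG00000119648 and Snord3b4 ENSMUSG00000119851 had mean counts of 49.4, and Terc ENSMUSG00002075569 of 22.8. The matched Snord3 copy has 213 bases, so the ranges may overlap once such rows are included. Per kilobase the longer rows still stood higher, with 407 for Scarna10, 233 for Scarna2, 196 for Snora73b, 184 for Snora73a, 109 for Scarna13, 74.0 for Snora74a and 19.7 CPM per kilobase for Scarna6, against 12.9 for Snord15a and 3.93 for Snord94 among the shorter rows, although Snord17, a longer row, was also at 12.9 CPM per kilobase. Whether RNA extraction and fragment selection bear on these levels was not tested.

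**Figure D4:**
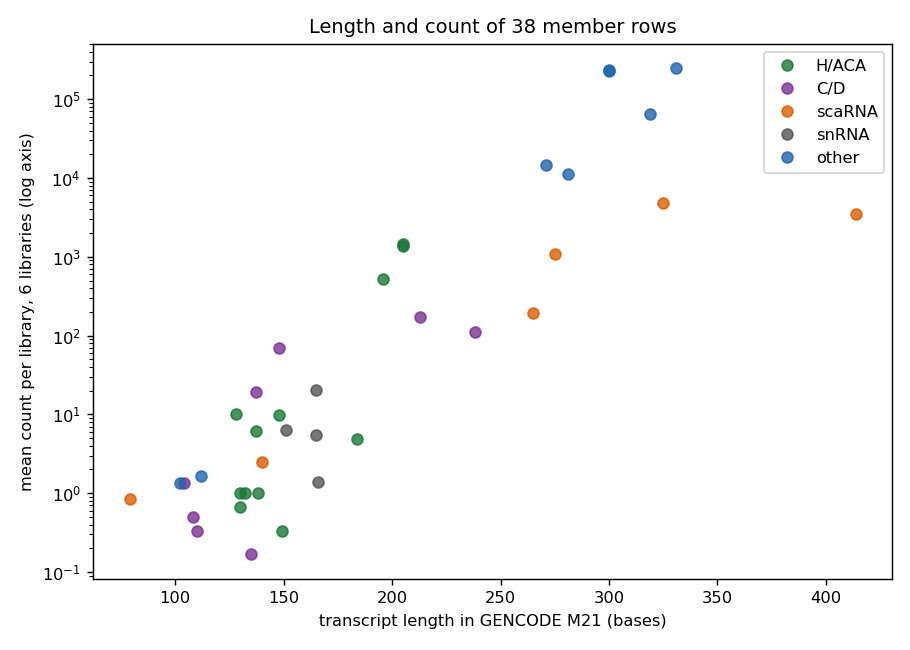
Mean count per library over all 6 libraries, on a log axis, against transcript length in bases for the 38 rows with a length, coloured by class. All 15 rows of 196 bases or more lie above the 23 shorter rows. The 7 rows without a length, all Snord3 or Terc copies, are not shown.

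Genes for the proteins of these particles were read from lists with the same fit, and 0 of them passed edgeR's test after adjustment. Of all genes tested, 47.1% had a log2 fold change below 0. Of 14 tested box C/D particle and assembly genes, 13 had log2 fold changes below 0 (median -0.25), among them Ruvbl2, an assembly ATPase, at 34.8, 57.7 and 75.3 CPM in mutant 1, 2 and 3, against 75.0, 81.5 and 72.4 CPM in control 1, 2 and 3. Nufip1, which joins these particles to their assembly machinery, had a log2 fold change of -0.28 ± 0.18 (SE). Of 10 H/ACA and Cajal body genes, 7 were below 0 (median -0.27). Parn, a deadenylase that trims the 3' ends of H/ACA RNAs and Terc, was at 40.6, 41.7 and 41.4 CPM in mutant 1, 2 and 3, against 53.1, 56.3 and 54.9 CPM in control 1, 2 and 3. The 3 values of each group were tight and did not overlap (log2 fold change -0.41 ± 0.12 SE, edgeR adjusted p 0.612). Tert, the telomerase protein, went the other way at 12.2, 16.4 and 9.86 CPM in mutant 1, 2 and 3, against 9.35, 7.61 and 7.52 CPM in control 1, 2 and 3, again without overlap.

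Of 21 genes for transcription by RNA polymerase III and SNAPc, 12 were below 0 (median -0.014), and Polr3g, a polymerase subunit of growing cells, was at 17.0, 23.2 and 25.8 CPM in mutant 1, 2 and 3, against 35.4, 31.0 and 33.8 CPM in control 1, 2 and 3. Polr3g had a log2 fold change of -0.60 ± 0.18 and Polr3c, another subunit, of -0.25 ± 0.14 (SE). For RNase P and MRP proteins 7 of 11 were below 0 (median -0.17), with Rpp40 at 7.57 ± 2.11 CPM in mutant and 11.4 ± 1.38 CPM in control cells (SD, n = 3 each) and Pop4 at a log2 fold change of -0.19 ± 0.15 (SE). For the signal recognition particle 7 of 8 were below 0 (median -0.20), with Srp54a, which encodes its GTPase, at 54.1, 64.2 and 66.0 CPM in mutant and 75.1, 77.5 and 75.4 CPM in control libraries, and its paralog Srp54c at a log2 fold change of -0.34 ± 0.18 (SE). For the 7SK particle 3 of 7 were below 0 (median 0.014), and Mepce, the enzyme that caps 7SK, had a log2 fold change of 0.51 ± 0.19 and Hexim1 of 0.33 ± 0.18 (SE). Summed over each list, mutant 1 was the lowest mutant library throughout and mutant 3 the highest in all lists but that of the signal recognition particle, whereas mutant 3 was low in Rmrp, Rpph1 and 7SL. The C/D particle genes, for example, summed to 859, 1353 and 1908 CPM in mutant 1, 2 and 3, against 1542, 1785 and 1598 CPM in control 1, 2 and 3. Mutant 3 was thus above every control library in this sum, and mutant 1 and mutant 2 were below.

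Processing and assembly factors were read in the same way. Integrator, which cleaves snRNA precursors, had 9 of 14 below 0 (median -0.05), and its catalytic subunit gene Ints11 was at 70.0, 71.2 and 78.7 CPM in mutant 1, 2 and 3, against 88.5, 109 and 90.8 CPM in control 1, 2 and 3. Ints10 had a log2 fold change of -0.22 ± 0.16 (SE). The nuclear exosome and its adaptors, which trim snoRNA 3' ends, had 16 of 18 below 0 (median -0.13), with Exosc9 at a log2 fold change of -0.31 ± 0.16 and Exosc3 at -0.40 ± 0.24 (SE). The snRNA assembly and minor spliceosome list had 17 of 23 below 0 (median -0.18), with Gemin2, of the SMN complex, at 12.4, 15.9 and 18.1 CPM in mutant and 19.9, 21.8 and 22.0 CPM in control libraries, and Snupn, the import adaptor of snRNPs, at 8.06 ± 0.763 CPM in mutant and 11.1 ± 1.15 CPM in control cells (SD, n = 3 each). Of the 2 genes for proteins that bind Y RNAs and new polymerase III transcripts, Ssb and Ro60 had log2 fold changes of -0.16 ± 0.18 and -0.049 ± 0.18 (SE). The 29 tested snoRNA host genes had a median of -0.0062, with 15 below 0, and Snhg20 at 12.9 ± 1.82 CPM in mutant and 9.09 ± 0.348 CPM in control cells (SD, n = 3 each).

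The split of the mutant libraries was set beside markers of other cells. Mutant 2, in which 7SL, Rpph1, Rmrp and Scarna6 were near control levels, also had the highest B cell sum, at 28.2 CPM, of which Pax5 was 11.5 CPM. Mutant 1 and mutant 3, with low levels of those RNAs, had B cell sums of 3.56 and 6.30 CPM. Myeloid markers summed to 5.33, 2.59 and 2.68 CPM in mutant 1, 2 and 3, against 3.39, 2.04 and 3.03 CPM in control 1, 2 and 3. CD8 markers summed to 6.56, 17.3 and 9.26 CPM in mutant and 40.4, 8.64 and 5.81 CPM in control libraries, and NK cell and erythroid sums were at most 1.73 CPM in any library. Mitochondrially encoded genes took 1.90, 2.35 and 2.35% of counts in mutant and 1.99, 2.19 and 2.23% in control libraries. The part of other cells and of RNA quality in the levels of structural RNAs was not tested.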

How the data were processed

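Libraries were made by the authors from 1.0 µg of total RNA with a ribosomal RNA depletion kit, per the labels' protocols. Per the submitters' processing notes, STAR 2.7.8a, Partek and the builds GRCm39 and mm39 were used; the role of each tool, the annotation and any strand setting were not stated. Values deposited by the authors are unnormalized estimated counts for each gene, and about 36% of its values were more than 0.01 from a whole number, as where reads were shared among copies.

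Counts were rounded, filtered with filterByExpr (minimum count 10; 18323 genes kept), scaled by TMM and compared, mutant minus control, with the quasi-likelihood test of edgeR 4.0.16 in R 4.3.3 on all 6 samples. Two-sided p-values were given a Benjamini-Hochberg adjustment across all tested genes. Standard errors are the absolute log2 fold change over the square root of F. CPM were computed from the unrounded counts. DESeq2 1.42.0, limma-voom (limma 3.58.1), other scalings and filters, a replicate block and leaving out each library were alternatives, and the edgeR procedure was tested on simulated data. Sequences, lengths and host genes came from GENCODE M21 (GRCm38), another build than that of the counts, so no coordinates are given.

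The members, the lists and the tests were chosen with earlier results of these data known. Genes named in the text were the tested scaRNA, snRNA and other members, the 8 H/ACA and 8 C/D members with the highest mean CPM, the 4 of each of these classes with the smallest edgeR p in each direction, and the 2 genes of each list with the smallest p. Ptcd3 and the other hosts, and the untested members, were named beside them. One B cell marker of the list and the sequence of Rn7s1 are not reported here.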

Additional observations from a re-analysis of the deposited data

How the results depend on the processing

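No member passed edgeR's adjusted test under any scaling, filter, block or left-out library, and Snora74a passed only in DESeq2. The 5 members lower at an unadjusted p under 0.05 became 3 with copies summed and 1 to 10 without single libraries (1 without control 1, 2 without control 2, control 3 or mutant 3, 3 without mutant 1, 10 without mutant 2). They became 4, without Rn7s2, under upper quartile scaling and under total counts. The same held with the filters of 1 CPM in 3 samples and of a mean of 1 CPM. With no count filter they became 6, as Rpph1 joined them. The 5 members below all controls became 2 under upper quartile scaling and 2 under total counts, Snora73b and Snora74a in both, and 4 to 13 without single libraries. The 0 members above all controls became up to 3 (0 to 3), and the C/D median ran from -0.86 without mutant 2 to 0.41 without control 2. The median of all tested members ran from -0.94 to -0.29. The cause was not tested.

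Correlations of the deviations of same-numbered libraries ran from -0.0669 to -0.0285. With 3 libraries per group such correlations cannot exclude pairing, so whether the numbers pair the libraries was not settled. Single members differed in this. The summed Snord3 rows were high in mutant 2 and control 2, at 44.6 and 57.4 CPM, against 10.7 to 16.3 CPM elsewhere. Snora74a was highest among mutant libraries in mutant 2 but lowest among controls in control 2. With the replicate block 9 members were lower at an unadjusted p under 0.05 instead of 5. No share over all genes was taken for the block, the other scalings, the summed copies or the left-out libraries.

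Directions changed only in rows near 0 or shared among copies. Rn7sk was at 0.023 with upper quartile scaling, 0.033 with total counts, 0.011 with TMM without the members, 0.026 and 0.021 with the filters of 1 CPM in 3 samples and of a mean of 1 CPM, and from -0.10 to 0.089 without single libraries. Snord94 ran from -0.29 to 0.21. Of the Snord3 rows, ENSMUSG00002074875 was at 0.012 in limma-voom and 0.041 with the block and ran from -0.67 to 0.78, ENSMUSG00000106147 from -1.98 to 0.76, ENSMUSG00002075453 from -0.86 to 0.41, ENSMUSG00002074955 from -1.38 to 0.051, and ENSMUSG00000119648 and ENSMUSG00000119851 from -1.19 to 1.84, with -0.33 when the Snord3 rows were summed. The summed Terc rows gave -0.38 against 0.63 for ENSMUSG00002075569. Filters on CPM left no snRNA row. No symbol began with Rnu3 or Rnu73, so classes by prefix were the same. Over all 12 H/ACA rows, with no filter or in DESeq2, the median was -0.13 or -0.14 in place of -0.95, and the C/D median over 13 rows was -0.11 or -0.12 in place of -0.34; more rows enter these medians.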
